A study of Mus musculus with 9 samples.

Results

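Klf2, Klf3, Foxo1, Foxp1, Lef1, Bach2, S1pr1, Ccr7, Il7r and Btg1 are genes that resting, naive T cells use to stay quiescent, to survive and to move between blood and lymph nodes. They were chosen by name, and all 10 were found among the 18193 genes measured, through probe sets annotated to a single gene. The samples were T cells of C57BL/6 mice, and what was hybridised, on 1 expression array per sample, was the RNA that came down with Argonaute (AGO), which binds microRNAs and through them their target transcripts. In the allogeneic group, BALB/c dendritic cells shared the culture for 24 h at 20 T cells per dendritic cell. In the anti-CD3/CD28 group, the stimulus over 24 h was anti-CD3e plus anti-CD28 antibody (0.1 µg/ml), and no dendritic cells are named. In the syngeneic group, the dendritic cells were C57BL/6 like the T cells, at the same ratio and for the same 24 h. Every group was then depleted of CD11c-positive cells, purified by negative magnetic selection and carried through crosslinking and immunoprecipitation of AGO. There were 3 arrays per group, labelled biological replicates 1 to 3; no label names the animals behind them, so that p-values measure only the spread between these arrays. The study set allogeneic activation against a syngeneic culture and against a stimulus without antigen.

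A naive T cell keeps itself at rest through transcription factors rather than by default. FOXO1, held in the nucleus while antigen receptor signalling is low, drives Klf2, Il7r, Ccr7 and S1pr1, and KLF2 itself drives S1pr1. Once the antigen receptor and CD28 signal through the kinase AKT, FOXO1 leaves the nucleus and this programme is known to be shut down before the cell divides.

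Because AGO was pulled down, a signal here reflects both how much of a transcript there was and how much of it was held by microRNA complexes, and RNA from before the pull-down was not analysed here. MicroRNAs have been reported to act on 3 of the genes: miR-182 on Foxo1 in activated mouse helper T cells, miR-34a on Foxp1 in mouse B cells, and miR-92a on KLF2 in human endothelial cells. Their mature sequences (RefSeq, GRCm38.p6) are shown because they are the guides through which AGO could hold these transcripts. Capitals mark the seed, bases 2 to 8, and the 3 seeds differ from each other.
mmu-miR-182-5p: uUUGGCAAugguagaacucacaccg
mmu-miR-34a-5p: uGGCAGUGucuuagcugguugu
mmu-miR-92a-3p: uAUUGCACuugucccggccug
The levels of these microRNAs and their sites in the transcripts were not analysed here.

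Of the 10 genes, 8 had a promoter sequence in the RefSeq table used (GRCm38.p6, 13 windows of 300 bases, from 250 bases before to 50 after a transcription start). Ccr7 and S1pr1 had none there. The forkhead motif GTAAACA, searched on both strands, was found in 1 of the 13 windows, that of Btg1, and in 3.65% of all 32851 windows. The Kruppel-like factor motif CACCC was found in 8 of the 13, in windows of Klf2, Klf3, Foxp1 and Lef1, and in 57.5% of all windows. CTTTGAA, the LEF and TCF motif, lay in 1 window of Foxp1, against 5.14% of all windows, and TGACTCA, the motif shared by AP-1 and BACH factors, in 0 of 13, against 5.2%. A match is only a match of letters, and several windows belong to the same gene. The 250 bases before the start of Klf2 (chr8:72318812-72319061, plus strand) and of Btg1 (chr10:96616751-96617000, plus strand) are shown as the promoters of a factor and of a growth inhibitor that differ in which motif they hold. Capitals mark CACCC on the opposite strand in Klf2 and GTAAACA on the opposite strand in Btg1.
Klf2: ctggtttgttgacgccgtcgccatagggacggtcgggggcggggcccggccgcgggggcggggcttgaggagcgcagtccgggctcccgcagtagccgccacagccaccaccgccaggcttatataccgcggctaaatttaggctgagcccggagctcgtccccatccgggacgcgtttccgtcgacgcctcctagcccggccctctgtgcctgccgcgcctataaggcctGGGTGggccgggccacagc
Btg1: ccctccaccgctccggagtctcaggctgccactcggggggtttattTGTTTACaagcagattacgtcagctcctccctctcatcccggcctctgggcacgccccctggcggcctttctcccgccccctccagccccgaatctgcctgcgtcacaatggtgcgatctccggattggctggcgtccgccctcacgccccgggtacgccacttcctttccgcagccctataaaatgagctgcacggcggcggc

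Some facts of the whole series bear on every value below. Values are log2 signals, and array medians ran from 4.58 to 5.67 over probe sets and from 4.85 to 6.24 over genes, the second being the array median used below. T cell markers were above the array median on every array for all 13 of 13 genes measured, with list means between 9.48 and 10.66 in allogeneic, 10.01 and 11.01 in anti-CD3/CD28 and 9.38 and 10.57 in syngeneic arrays. Replicate number grouped the arrays more strongly than culture did. The allogeneic and anti-CD3/CD28 arrays numbered 1 were nearly the same, with an SD of 0.103 (log2) for their difference across genes, against 0.493 in number 2 and 0.680 in number 3. Values of a gene were often exactly equal on arrays of 1 number, and what made them so is not given in the sources used here. For the 10 genes this held for 2 of 30 within-number values between allogeneic and syngeneic arrays (6.67%, against 25.5% for all genes), 6 of 30 between anti-CD3/CD28 and syngeneic arrays (20%, against 28.7%) and 3 of 30 between allogeneic and anti-CD3/CD28 arrays (10%, against 33.1%).

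The quiescence genes all gave a sizeable signal in the AGO-bound RNA of every culture. On the brightest probe set of each, which is used unless another is named, all 10 lay above the median of every array. Syngeneic culture had the highest group mean for 8 of the 10, and anti-CD3/CD28 culture for the other 2, Klf3 and Foxp1. Allogeneic culture had the lowest mean for 6. These orders rest on small differences: replicate number held 68.5% to 99.6% of each gene's variance over the 9 arrays, and culture held 0.128% (Bach2) to 24.4% (Foxo1). By number, 7 of the genes were highest in number 3 and 3 (Lef1, Il7r and Btg1) in number 1, and 8 were lowest in number 2. How often such orders of culture or number occurred among all genes was not analysed here.

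**Figure D1:**
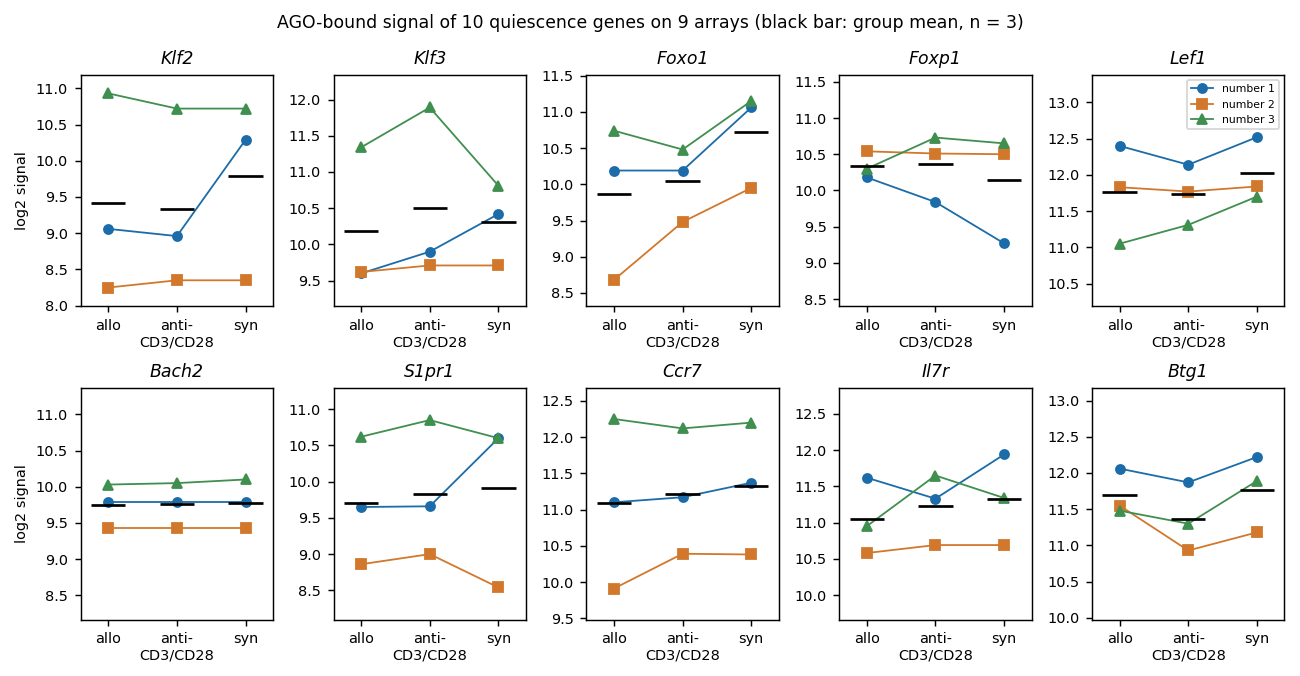
Log2 signal of the brightest probe set of each of the 10 genes (vertical axes, each spanning 3.2 log2 units) in allogeneic, anti-CD3/CD28 and syngeneic cultures (left to right), with a line joining the arrays of 1 replicate number and a black bar for each group mean. The lines of different numbers lie far apart for most genes, while Foxo1 is highest in syngeneic culture in each of the 3 numbers.

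No quiescence gene passed the test in any comparison. In limma (1 mean per group, all 9 arrays, Benjamini-Hochberg adjustment over 18193 genes) the adjusted p was 1 for each of the 10 genes in each of the 3 comparisons. The share of all genes called was 0% in each of them. At an unadjusted p under 0.05 limma counted 27 of all genes between allogeneic and syngeneic cultures, 156 between anti-CD3/CD28 and syngeneic, and 24 between allogeneic and anti-CD3/CD28, and 0 of the 10 in each. With replicate number as a block the adjusted calls were again 0. For allogeneic against syngeneic culture, 1 of the 10 (Foxo1) reached an unadjusted p under 0.05 in limma, against 4.53% of all genes. Of all genes, 2.21% were lower at that level. For anti-CD3/CD28 against syngeneic culture, 2 of the 10 (Foxo1 and Btg1) reached it, against 6.79% of all genes, with 4.56% lower. Standard errors of the 10 differences ran from 0.36 to 0.83 without the block and from 0.08 to 0.33 with it. The groups overlapped for every one of the 10 in every comparison. Groups lay apart with the first group lower for 0.451%, 1.52% and 0.055% of all genes, and with it higher for 0.192%, 0.412% and 0.269%, in the same order of comparisons. What follows therefore describes levels and differences within each replicate number, and says nothing of a change that passed.

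Foxo1 was lower than in syngeneic culture in each replicate number of both stimulated cultures. Foxo1, the forkhead factor at the head of the naive programme, stood at 10.19, 8.68 and 10.74 in allogeneic replicates 1, 2 and 3, at 10.19, 9.48 and 10.48 in anti-CD3/CD28 replicates and at 11.06, 9.95 and 11.15 in syngeneic replicates. In each number the syngeneic array was the highest, although the lowest syngeneic array lay under several stimulated ones. The means were 9.87 ± 1.07 (SD, n = 3) in allogeneic and 10.72 ± 0.67 in syngeneic culture, a log2 difference of −0.85 ± 0.57 (SE, limma, 95% interval −2.08 to 0.39), with −0.87, −1.26 and −0.41 within numbers 1, 2 and 3. Anti-CD3/CD28 culture, at 10.05 ± 0.52, differed from syngeneic by −0.67 ± 0.57 (−1.9 to 0.57), with −0.87, −0.47 and −0.67 within the numbers. With replicate number as a block the intervals were narrower, −1.41 to −0.29 and −1.23 to −0.11, and the adjusted p-values in limma were 0.709 and 0.727. Both comparisons use the same syngeneic arrays. Between allogeneic and anti-CD3/CD28 cultures Foxo1 was exactly equal in number 1, different by −0.80 in number 2 and 0.26 higher in number 3.

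The other Foxo1 probe sets did not all repeat this. Those ranked 2 and 3 by brightness were lower than in syngeneic culture in number 1 (−0.71 and −0.61 in allogeneic, −0.89 and −0.61 in anti-CD3/CD28 cultures) and near level in number 3 (0.22 and 0.07, and 0.13 and 0.07). The fourth and dimmest had a mean difference of 0.49 in allogeneic culture, from 1.30 in number 3. With the mean of all 4 probe sets Foxo1 differed from syngeneic culture by −0.22 in allogeneic and −0.21 in anti-CD3/CD28 culture, in place of −0.85 and −0.67. In number 2 the sets ranked 2 and 3 differed by −0.24 and −0.34 in allogeneic culture and were exactly equal to syngeneic culture in anti-CD3/CD28 culture. In all, 3 of 4 Foxo1 probe sets had a mean of the same sign in each comparison with syngeneic culture. For anti-CD3/CD28 culture the negative means of the sets ranked 2 and 3 came from number 1 alone.

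Klf2, the zinc finger factor that holds T cells at rest and switches on S1pr1, differed in number 1 alone. Its only probe set stood at 9.06, 8.25 and 10.93 in allogeneic, 8.96, 8.35 and 10.72 in anti-CD3/CD28 and 10.29, 8.35 and 10.72 in syngeneic replicates 1, 2 and 3. The syngeneic array was the highest of number 1 by more than 1 log2 unit, and in numbers 2 and 3 the cultures lay within 0.21 of each other. Differences from syngeneic culture were −1.23, −0.10 and 0.21 for allogeneic and −1.33, 0.00 and 0.00 for anti-CD3/CD28 arrays, the last 2 being exactly equal values. As means they came to −0.37 ± 0.83 and −0.44 ± 0.83 (SE, limma). With the arrays numbered 1 left out (chosen after seeing the data) the first was 0.06 and the second 0.00.

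Its paralogue Klf3, a repressor that binds the same CACCC boxes, differed in sign between replicate numbers. Klf3 stood at 9.60, 9.62 and 11.34 in allogeneic, 9.90, 9.71 and 11.89 in anti-CD3/CD28 and 10.42, 9.71 and 10.81 in syngeneic replicates 1, 2 and 3. Both stimulated arrays were below the syngeneic one in number 1 and above it in number 3. Allogeneic arrays differed from syngeneic by −0.82, −0.10 and 0.53, and anti-CD3/CD28 arrays by −0.52, 0.00 and 1.08. In the direct comparison Klf3 was lower in allogeneic than in anti-CD3/CD28 culture in each number (−0.29, −0.10 and −0.55, mean −0.31 ± 0.64). All 7 of its probe sets had a mean of that sign. Beside the brightest, only the set ranked 2 by brightness was lower in each number (−0.18, −0.19 and −0.48). The sets ranked 4, 5 and 7 differed by 0.00 in number 1 and by −0.04, 0.47 and 0.95 in number 2. Their negative means came mainly from number 3, at −1.43, −2.79 and −1.73. The sets ranked 5, 6 and 7 did not exceed the array median on 7, 6 and 8 of 9 arrays.

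Foxp1, a forkhead factor that keeps naive T cells quiescent, was the one gene of the 10 above syngeneic culture in number 1. It stood at 10.18, 10.54 and 10.30 in allogeneic, 9.84, 10.51 and 10.73 in anti-CD3/CD28 and 9.27, 10.50 and 10.65 in syngeneic replicates 1, 2 and 3. The syngeneic array of number 1 was the lowest of the 9, and in number 2 the cultures lay within 0.05 of each other. Differences from syngeneic culture were 0.91, 0.05 and −0.35 in allogeneic arrays, with a mean of 0.20 ± 0.46, and 0.57, 0.02 and 0.08 in anti-CD3/CD28 arrays, with a mean of 0.22 ± 0.46. Of its 8 probe sets only 2 shared the sign in the allogeneic comparison and 6 in the antibody comparison. With the mean of all probe sets the allogeneic difference turned to −0.14.

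Lef1, the HMG-box factor that pairs with TCF1 in naive T cells, was slightly lower in each stimulated culture of each number. It stood at 12.40, 11.83 and 11.05 in allogeneic, 12.14, 11.77 and 11.31 in anti-CD3/CD28 and 12.52, 11.84 and 11.70 in syngeneic replicates 1, 2 and 3. The syngeneic array was the highest in every number, by as little as 0.01 in number 2. Differences were −0.13, −0.01 and −0.64 (mean −0.26 ± 0.38) in allogeneic and −0.38, −0.07 and −0.39 (mean −0.28 ± 0.38) in anti-CD3/CD28 cultures. The second Lef1 probe set was higher than in syngeneic culture in number 3, by 0.34 and 0.68.

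Bach2, the repressor that restrains effector genes in T cells and also acts in B cells, gave different pictures on different probe sets. The brightest stood at 9.79, 9.43 and 10.03 in allogeneic, 9.79, 9.43 and 10.05 in anti-CD3/CD28 and 9.79, 9.43 and 10.10 in syngeneic replicates 1, 2 and 3, values that were exactly equal over the 3 cultures in numbers 1 and 2. The second probe set stood at 8.61, 8.04 and 9.37, then 8.47, 8.43 and 9.44, against 8.88, 8.51 and 9.85 in the same order of groups. Here the syngeneic array was the highest of each number, with differences from it of −0.27, −0.47 and −0.47 in allogeneic and −0.41, −0.08 and −0.40 in anti-CD3/CD28 arrays. Mean differences were −0.02 on the brightest set and −0.41 and −0.30 on the second, which was not tested on its own.

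Of the receptors for homing and survival, S1pr1 and Il7r had their values of number 1 below syngeneic culture by more than Ccr7 did. S1pr1, the sphingosine-1-phosphate receptor that lets T cells leave lymph nodes, stood at 9.65, 8.86 and 10.62 in allogeneic, 9.66, 9.0 and 10.85 in anti-CD3/CD28 and 10.60, 8.54 and 10.60 in syngeneic replicates 1, 2 and 3. It was lower than in syngeneic culture in number 1, by −0.96 and −0.95, and higher in numbers 2 and 3, by 0.33 and 0.02 in allogeneic and 0.46 and 0.25 in anti-CD3/CD28 arrays. S1pr1 thus shared the sign of Klf2, its known activator, in number 1, and did not share it in number 2 of the allogeneic comparison.

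Ccr7, the chemokine receptor that brings naive T cells and mature dendritic cells into lymph nodes, hardly varied with culture. It stood at 11.10, 9.91 and 12.25 in allogeneic, 11.17, 10.39 and 12.12 in anti-CD3/CD28 and 11.37, 10.38 and 12.20 in syngeneic replicates 1, 2 and 3. The numbers lay apart without overlap, and within a number the widest gap was −0.48, between allogeneic and anti-CD3/CD28 arrays of number 2. Differences from syngeneic culture were −0.23 ± 0.63 and −0.09 ± 0.63.

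Il7r, the receptor chain for the survival cytokine interleukin-7, stood at 11.62, 10.58 and 10.95 in allogeneic, 11.33, 10.69 and 11.65 in anti-CD3/CD28 and 11.94, 10.69 and 11.34 in syngeneic replicates 1, 2 and 3. Allogeneic arrays were below the syngeneic array of each number (−0.32, −0.11 and −0.39, mean −0.27 ± 0.42), and both Il7r probe sets had that sign. Anti-CD3/CD28 arrays were lower in number 1 (−0.61), exactly equal in number 2 and higher in number 3 (0.32).

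Btg1, an antiproliferative protein that keeps T cells quiescent by promoting messenger RNA decay, was higher in allogeneic than in anti-CD3/CD28 culture in each number. It stood at 12.06, 11.55 and 11.48 in allogeneic, 11.87, 10.93 and 11.30 in anti-CD3/CD28 and 12.22, 11.18 and 11.89 in syngeneic replicates 1, 2 and 3. The anti-CD3/CD28 array was the lowest of each number. Differences from syngeneic culture were −0.15, 0.37 and −0.41 (mean −0.06 ± 0.36) in allogeneic and −0.34, −0.25 and −0.58 (mean −0.39 ± 0.36) in anti-CD3/CD28 arrays. With replicate number as a block the 95% interval of the second was −0.78 to −0.01, at an adjusted p of 0.727 in limma. Between allogeneic and anti-CD3/CD28 cultures Btg1 differed by 0.19, 0.62 and 0.18 (mean 0.33 ± 0.36) on the brightest and by 0.34, 0.61 and 0.46 on the second probe set. The third and dimmest gave 0.00, 0.28 and −0.61.

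**Figure D2:**
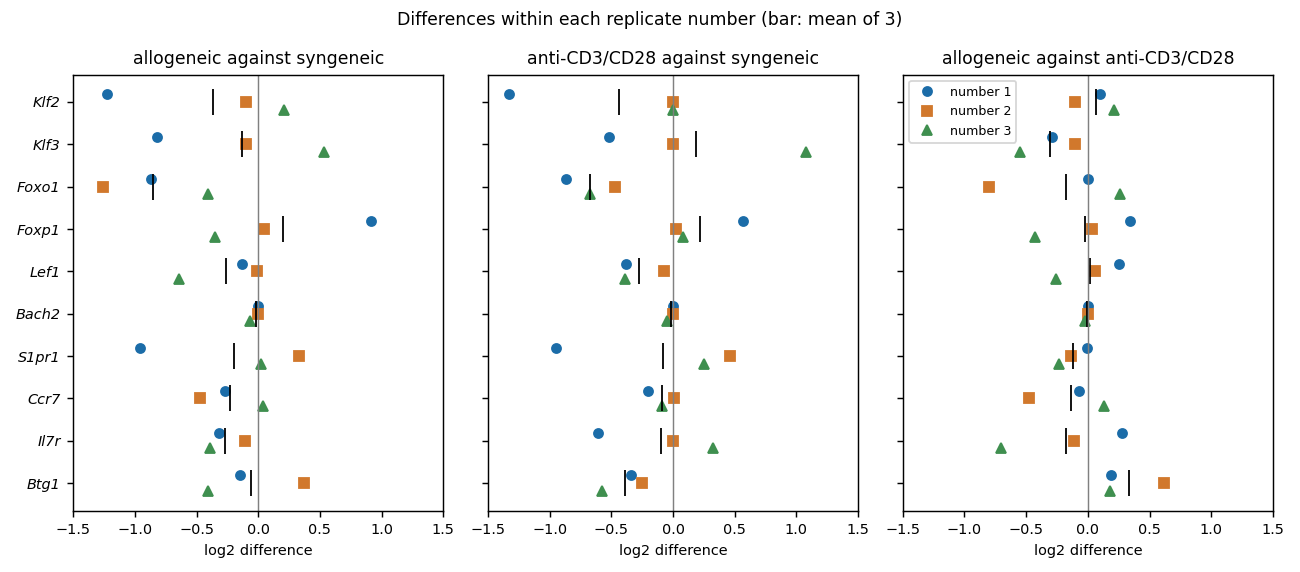
Log2 differences of the 10 genes within replicate numbers 1, 2 and 3 (circles, squares and triangles) and their means (black bars), for the 3 comparisons from left to right. Foxo1 and Lef1 lie below 0 in each number in the first 2 panels, where the circles of Klf2, Klf3 and S1pr1 also lie to the left of their squares and triangles.

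Taking the genes together, allogeneic means were lower than syngeneic for 9 of 10, where 42.8% of all genes were lower, and 59.2% of the 1661 genes at least as bright as the dimmest of the 10. The median log2 difference of the 10 was −0.22, against 0.03 for all genes and −0.05 for the bright ones. Lower in all 3 numbers were 3 of 10 (Foxo1, Lef1 and Il7r), against 7.96% of all and 18.1% of bright genes. Higher in all 3 numbers were 0 of 10, against 7.29% of all and 8.55% of bright genes. Anti-CD3/CD28 means were lower than syngeneic for 8 of 10, against 48.1% of all and 52% of bright genes, with a median of −0.10 against 0.00 for all genes. Lower in all 3 numbers were Foxo1, Lef1 and Btg1, 3 of 10 against 9.15% of all and 16.9% of bright genes, and 1 of 10, Foxp1, was higher in all 3 (7.8% of all and 14% of bright genes). Between allogeneic and anti-CD3/CD28 cultures the median was −0.07, against 0.04 for all genes. There 7 of 10 means were lower (37% of all, 56.3% of bright genes), 2 genes (Klf3 and S1pr1) were lower in each number (2.58% and 8.49%) and 1 (Btg1) was higher in each (4.39% and 8.49%).

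The share of quiescence genes below syngeneic culture was largest in number 1. There 8 of 10 were lower in allogeneic culture, where 35.7% of all and 39.3% of bright genes were lower. Of the 8, 4 (Klf2, Klf3, Foxo1 and S1pr1) were lower by at least 0.5, against 7.59% of all and 12.2% of bright genes. In number 2, 6 were lower (32.4% of all, 61.3% of bright genes), with Foxo1 alone lower by at least 0.5 (13.8% and 20.5%). In number 3, 6 were lower (35.9% of all, 55.6% of bright genes), with Lef1 alone lower by at least 0.5 (7.68% and 7.71%). In anti-CD3/CD28 culture 8 were lower in number 1 (32.9% of all, 43% of bright genes). Klf2, Klf3, Foxo1, S1pr1 and Il7r, 5 of 10, were lower by at least 0.5 (8.04% and 13.7%). In number 2, 3 of 10 were lower (28.2% of all, 37.2% of bright genes) and 0 by at least 0.5 (8.92% and 9.45%). In number 3, 5 of 10 were lower (43.5% of all, 59.2% of bright genes), and Foxo1 and Btg1, 2 of 10, by at least 0.5 (19.4% and 21.7%). In numbers 2 and 3 the shares of the 10 were thus close to those of bright genes. With 1 pair of arrays per number these shares have no replicate check, and the stimulated arrays of number 1 were nearly the same.

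A list of 25 further genes linked to quiescence and the naive state, 23 of them measured, had 0 genes called. In allogeneic culture 17 of 23 had a lower mean than in syngeneic culture (42.8% of all, 59.2% of bright genes), with a median of −0.12, and 19 were lower in number 1, 12 in number 2 and 15 in number 3. In anti-CD3/CD28 culture 13 of 23 were lower (48.1% of all, 52% of bright genes), with a median of −0.12. By number, 22 were lower in number 1 and 11 in number 2, while in number 3, 10 were lower and 13 higher. Cdkn1b, the cyclin-dependent kinase inhibitor p27, was among those with the smallest p in both comparisons, with −0.40, −0.37 and −0.60 in allogeneic and −0.61, −0.52 and −0.52 in anti-CD3/CD28 culture. Vsir, the inhibitory receptor VISTA, differed by −0.76, −1.02 and −0.25 in allogeneic culture. Tob1, an antiproliferative relative of Btg1, differed by −0.29, −0.84 and −1.73 in anti-CD3/CD28 culture. The survival gene Bcl2 was among the 10 of 23 with a higher mean in anti-CD3/CD28 than in syngeneic culture, at −0.17, 0.65 and 1.16.

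Lists of activation and division genes had their largest medians in number 1. In number 1 the 16 activation genes had a median log2 difference from syngeneic culture of 0.91 in allogeneic and 0.91 in anti-CD3/CD28 culture, and the 9 mitosis genes measured had 2.01 and 2.17. In number 2 these medians were −0.05 and −0.05 in allogeneic and 0.07 and 1.40 in anti-CD3/CD28 culture. In number 3 they were 0.52 and 0.98, and 0.22 and 0.48. The corresponding medians of the 10 quiescence genes were −0.30, −0.05 and −0.21 in allogeneic culture and −0.45, 0.00 and −0.02 in anti-CD3/CD28 culture for numbers 1, 2 and 3. Gzmb, the granule protease of killer cells, differed by 4.07, 0.94 and 1.25 and by 4.09, 1.04 and 1.44 in the 2 cultures. Of the activation and mitosis genes 0 were called, and the part of activation in the values of the 10 was not tested.

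**Figure D3:**
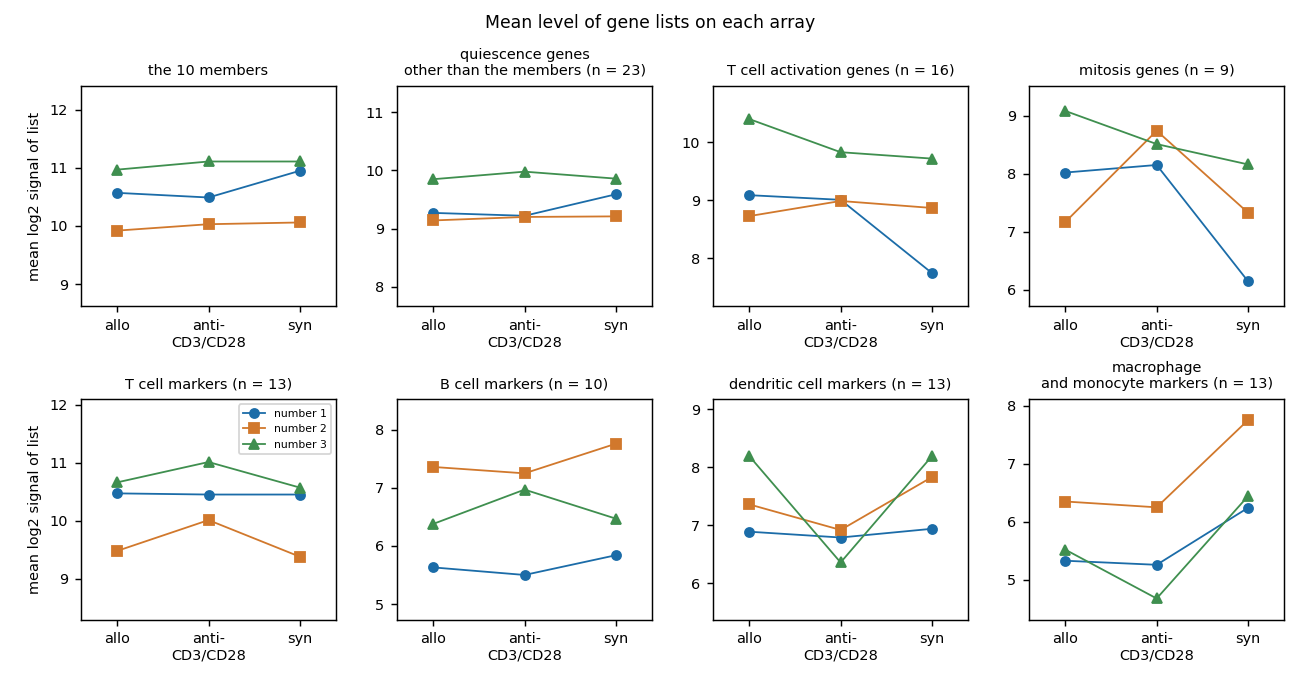
Mean log2 signal of 8 gene lists (vertical axes, each spanning 3.8 log2 units) in allogeneic, anti-CD3/CD28 and syngeneic cultures (left to right), with a line for each replicate number. In number 1 the syngeneic array has the highest mean of the 10 quiescence genes (10.95) and the lowest means of activation (7.75) and mitosis genes (6.15), and macrophage and monocyte markers are highest in syngeneic culture in every number.

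Markers of other cells also differed between the cultures, and in bulk RNA fewer cells of a type cannot be told apart from less RNA per cell. The 13 macrophage and monocyte markers measured had list means of 5.33 to 6.35 in allogeneic, 4.68 to 6.25 in anti-CD3/CD28 and 6.24 to 7.75 in syngeneic arrays, and all 13 had lower means in both stimulated cultures than in syngeneic culture. Csf1r, the macrophage growth factor receptor, stood at 4.37, 5.91 and 6.63 in allogeneic, 4.28, 5.58 and 4.26 in anti-CD3/CD28 and 8.71, 9.99 and 9.21 in syngeneic replicates 1, 2 and 3. The 13 dendritic cell markers, which matter for Ccr7, had means of 6.89 to 8.19, 6.36 to 6.92 and 6.94 to 8.19. Their median difference between anti-CD3/CD28 and syngeneic culture was −0.09, −0.66 and −1.18 in numbers 1, 2 and 3. Ccl17, for example, stood at 9.80, 7.53 and 5.86 in anti-CD3/CD28 and 9.80, 10.93 and 11.87 in syngeneic replicates. In number 1 the antibody array thus had these markers near the level of a culture with dendritic cells, and why was not tested. The 10 B cell markers, which matter for Bach2, Foxp1, Klf2 and Ccr7, had means of 5.63 to 7.36, 5.50 to 7.25 and 5.84 to 7.76, with 9 of 10 lower in allogeneic and 6 of 10 in anti-CD3/CD28 than in syngeneic culture. Ighm, 1 of these markers, was far brighter than the list means. It stood at 12.60, 11.59 and 12.76 in allogeneic, 12.00, 10.68 and 12.30 in anti-CD3/CD28 and 13.76, 12.23 and 12.99 in syngeneic replicates 1, 2 and 3. The syngeneic array was the highest of each number. The mean of the B cell markers was highest in number 2, where 8 of the 10 quiescence genes had their lowest level. This low level was not particular to the 10. In each culture the T cell markers (9.48, 10.01 and 9.38) and the 23 other quiescence genes (9.14, 9.20 and 9.21) also had their lowest mean in number 2. Array medians were also highest in number 2, at 6.20 to 6.24, against 4.85 to 4.86 in number 1 and 5.52 to 5.92 in number 3. B cell markers above the array median were 9 or 10 of 10 on arrays of number 2 and 4 to 6 on the others. Natural killer cell markers (5 genes) had means of 5.94 to 6.59, 6.18 to 7.05 and 6.01 to 6.73. The 5 stromal markers were above the array median in number 2 alone, with means of 8.72, 8.29 and 10.49 there and 4.04 to 4.43 elsewhere. The part of these cells in the values of the quiescence genes was not tested.

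One array stood out among the probe sets. On anti-CD3/CD28 replicate 3, 6 of the 32 probe sets of the 10 genes were at least 1 log2 unit above syngeneic replicate 3, against 4.83% of all 34945 probe sets. They were 4 of Klf3, its brightest among them, 1 of Foxp1 and 1 of Il7r, and probe sets of a gene share its transcripts. The fifth Klf3 probe set stood at 5.96 in allogeneic, 8.74 in anti-CD3/CD28 and 5.61 in syngeneic replicate 3, and at 4.47 to 6.23 on the arrays of numbers 1 and 2. On 7 of 9 arrays it did not exceed the array median, syngeneic replicate 3 included, so that its differences are taken against a level not shown to be above background. The same holds for the seventh Klf3 probe set, at 4.03, 5.76 and 4.42 on these arrays of number 3, which did not exceed the median on 8 of 9 arrays. The seventh Foxp1 probe set stood at 6.24, 9.01 and 6.73 on the same arrays of number 3 and did not exceed the median on 4 of 9 arrays, and the second of Il7r at 8.93, 10.48 and 9.29. Numbers 1 and 2 had 0 such probe sets among the 32, against 1.96% and 1.8% of all. At least 1 log2 unit below syngeneic replicate 3 on this array were 1 of the 32 and 8.17% of all probe sets. The shares of all that much lower in numbers 1 and 2 were 2.28% and 3.97%.

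**Figure D4:**
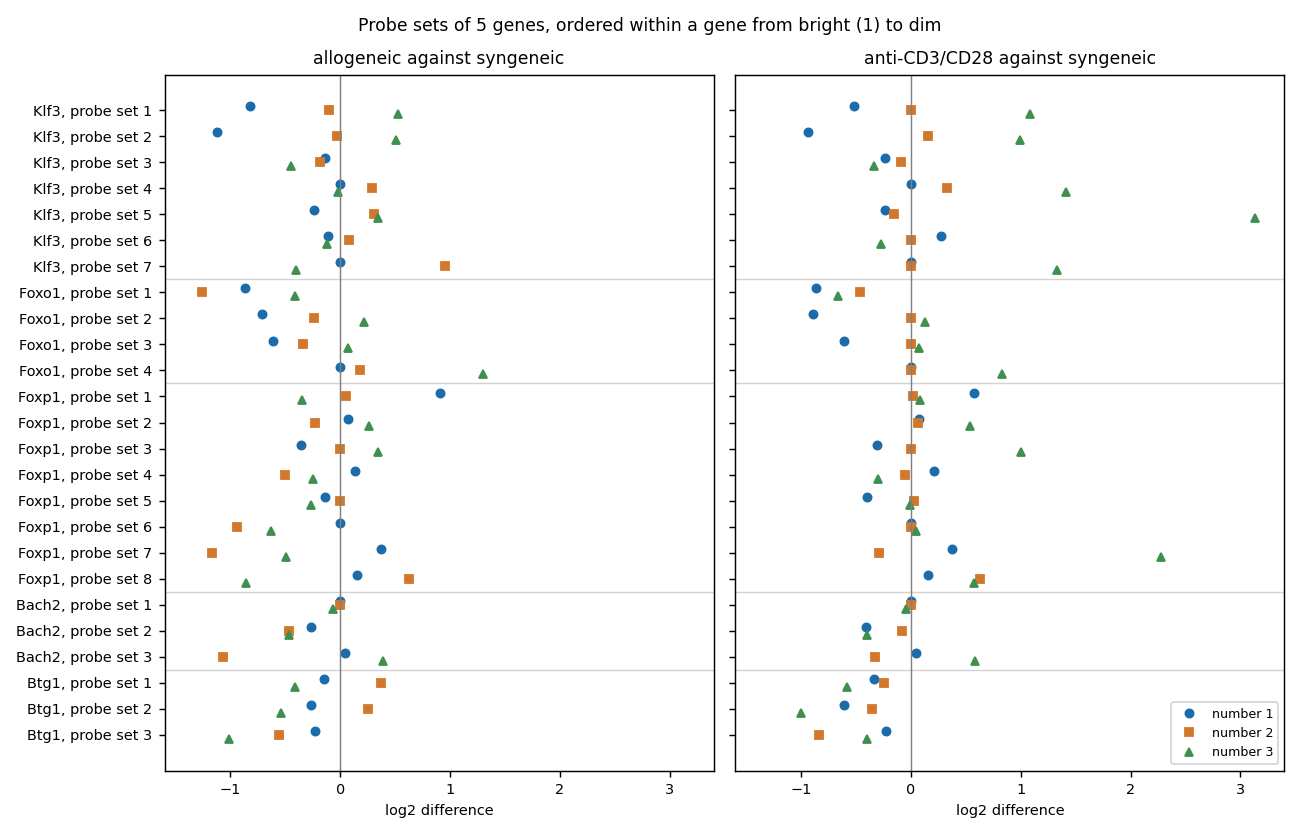
Log2 differences from syngeneic culture of every probe set of Klf3, Foxo1, Foxp1, Bach2 and Btg1, within replicate numbers 1, 2 and 3, for allogeneic (left) and anti-CD3/CD28 cultures (right). The triangle at 3.13 is the fifth Klf3 probe set on anti-CD3/CD28 replicate 3, set against a syngeneic value (5.61) under its array median, and probe sets of Foxo1 and Bach2 differ in how far they lie from 0.

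Genes with patterns like those of the 10 were found by the root mean square distance over the 6 within-number log2 differences from syngeneic culture. Nearest to Klf3 was Foxo3, the forkhead relative of Foxo1, at a distance of 0.084, with −0.79, −0.15 and 0.59 in allogeneic and −0.51, 0.00 and 0.89 in anti-CD3/CD28 culture. Pank1, a coenzyme A synthesis kinase, was nearest to Foxo1 (0.131), with −0.70, −1.05 and −0.48 and −0.82, −0.57 and −0.76. Klf2 had Smcr8 (0.092), S1pr1 had Ctsa (0.092), Lef1 had Trp53inp1 (0.072), Foxp1 had Qrich1 (0.136), Ccr7 had Lrrc8c (0.057), Il7r had Tecpr1 (0.079) and Btg1 had Rab21 (0.105). Within 0.2 of Foxo1 lay 0.0275% of all genes, against 33.6% for Bach2, whose differences are nearly all 0.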

How the data were processed

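Per the submitters' processing notes, the authors summarised each probe set with RMA into a log2 signal; no software or version is named in the sources used here. Deposited values cover 45101 probe sets on 9 arrays and were used without further normalization. Control probe sets (64), 932 with several genes and 9160 with no gene listed were left out. The other 34945 were named from the platform annotation, and 34741 had their symbol taken by gene ID from a RefSeq table. A gene (18193 in all) is represented by its brightest probe set, judged by the mean of the 9 arrays. Some genes of the lists were not analysed here and are not reported.

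The tests used limma 3.58.1 under R 4.3.3 (intensity trend, adjusted p under 0.05). A check on simulated data required only that mean estimates lay near the differences put in. How often such differences would be called is not reported here. The labels share replicate numbers, and they do pair them: deviations from group means correlated at 0.811 to 0.921 for the 9 same-number pairs of arrays. The fit without a block is the one reported, with the block as an alternative. Standard errors of the fit without a block therefore include the spread between replicate numbers. Other alternatives were 2 scalings, a filter on dim genes, no trend, fewer arrays, the mean of probe sets and each array left out. The number of arrays limits precision. Beyond the 10 genes, up to 3 genes of each list with the smallest p per comparison could be named. The genes and lists were chosen with earlier results of these data known, and support nothing by themselves.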

Additional observations from a re-analysis of the deposited data

How the results depend on the processing

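None of the 10 genes was called under any alternative. The replicate block changed no call: the genes called stayed at 0 in each comparison, and 0 of the 10. With replicate number as a random block limma called 1 of all genes for allogeneic against syngeneic and 30 for anti-CD3/CD28 against syngeneic, and with arrays centred on their medians 1 and 1. The direction of small differences was not stable. For allogeneic against syngeneic, quantile normalization gave Klf3 0.06 and Bach2 0.04, and the mean of all probe sets gave Foxp1 −0.14. For anti-CD3/CD28 against syngeneic, quantile normalization gave Bach2 0.03 and S1pr1 0.06, centring gave Bach2 0.10, S1pr1 0.04, Ccr7 0.02 and Il7r 0.02, and the mean of probe sets gave Il7r 0.04. For allogeneic against anti-CD3/CD28, quantile normalization gave Lef1 −0.02 and Bach2 0.01, centring gave Klf2 −0.08 and Lef1 −0.13, and the mean of probe sets gave Lef1 −0.08. Without the arrays numbered 1, chosen after the data were seen, allogeneic against syngeneic gave Klf2 0.06, Klf3 0.22, Foxp1 −0.15 and S1pr1 0.17, anti-CD3/CD28 against syngeneic gave S1pr1 0.36 and Il7r 0.16, and allogeneic against anti-CD3/CD28 gave Lef1 −0.10. The median of the 10 was then −0.09, −0.01 and −0.18 in the 3 comparisons, in that order. With centring it was −0.25, 0.02 and −0.22, and with quantile normalization −0.11, −0.06 and −0.07, against −0.22, −0.10 and −0.07 as deposited. With the mean of all probe sets Foxo1 was −0.22 and −0.21 against syngeneic culture. The causes were not tested.

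Leaving out 1 array at a time unbalances the replicate numbers, and the ranges are wide. For allogeneic against syngeneic the median of the 10 ran from −0.51 to 0.12, Klf2 from −1.13 to 0.21, Klf3 from −0.70 to 0.17, Foxo1 from −1.28 to −0.25, Foxp1 from −0.23 to 0.46, Lef1 from −0.58 to 0.09, Bach2 from −0.20 to 0.14, S1pr1 from −0.89 to 0.22, Ccr7 from −0.81 to 0.35, Il7r from −0.59 to 0.04 and Btg1 from −0.35 to 0.16. For anti-CD3/CD28 against syngeneic the median ran from −0.49 to 0.15, Klf2 from −1.16 to 0.05, Klf3 from −0.51 to 0.58, Foxo1 from −1.05 to −0.38, Foxp1 from −0.21 to 0.48, Bach2 from −0.19 to 0.15, S1pr1 from −0.77 to 0.34, Ccr7 from −0.56 to 0.35 and Il7r from −0.42 to 0.21, while Lef1 and Btg1 stayed below 0. For allogeneic against anti-CD3/CD28 the median ran from −0.44 to 0.23, Klf2 from −0.69 to 0.76, Klf3 from −0.89 to 0.38, Foxo1 from −0.61 to 0.42, Foxp1 from −0.28 to 0.16, Lef1 from −0.30 to 0.37, Bach2 from −0.17 to 0.16, S1pr1 from −0.58 to 0.38, Ccr7 from −0.72 to 0.45 and Il7r from −0.46 to 0.06, and Btg1 stayed above 0.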
